A study of Mus musculus with 20 samples.

Results

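The 10 posterior Hox genes of paralog groups 9 to 11 (Hoxa9, Hoxb9, Hoxc9, Hoxd9, Hoxa10, Hoxc10, Hoxd10, Hoxa11, Hoxc11 and Hoxd11) were followed across lymph nodes of 5 drainage sites. They were taken by gene symbol from the deposited gene table and are 10 of its 39 Hox genes and of its 56258 genes. The 20 libraries are polyA RNA of whole nodes from mice aged 9 weeks, with 4 libraries each of duodenal, jejunal, ileal and ceco-colonic nodes, all on the gut, and of inguinal nodes, the skin-draining comparison. All groups carried the same germline loss of Rag1 (strain B6.129S7-Rag1tm1Mom/J), so mature T and B cells were lacking everywhere and no group with an intact Rag1 was compared. Separate animals are not stated for the 4 libraries of a site, so p-values and SDs measure the spread between these libraries, which may be technical. Total estimated counts were 148.2 to 304.6 M (mega counts) per library. The genes were selected on their measured levels at these sites, which were already known, so those levels are given as a description, without a test.

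Hox genes encode homeodomain transcription factors that lie in 4 clusters, HoxA to HoxD. Their order along a cluster matches the order in which they are switched on along the head-to-tail axis of the embryo, and the groups at the 5′ end of each cluster, the posterior ones, mark the caudal trunk, the hindgut and the limbs. Fibroblasts and other mesenchymal cells of the adult keep much of this positional code. Hoxa9 and Hoxa10 are also known from blood progenitors. In these bulk samples, fewer cells that express a Hox gene and less RNA per such cell cannot be told apart.

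Per transcript length, Hoxd9 had the highest level of the 10 genes, with 9.87 TPM (transcripts per mega transcripts, a length-normalised level) as the mean of the 20 libraries. Hoxd10 followed at 2.72, Hoxc9 at 2.62, Hoxc10 at 2.39, Hoxa9 at 2.13, Hoxa10 at 1.08 and Hoxb9 at 1.03 TPM. The genes of group 11 were far lower, with 0.156 TPM for Hoxd11, 0.0291 for Hoxa11 and 0.009 for Hoxc11. Posterior Hox RNA as a whole was scarcest in duodenal nodes, where the 10 genes summed to 8.77 ± 2.22 TPM (SD, n = 4). The sum was 14.2 ± 2.81 TPM in jejunal, 21 ± 1.25 TPM in ileal, 33.7 ± 1.01 TPM in ceco-colonic and 32.6 ± 0.678 TPM in inguinal nodes. Ceco-colonic libraries (32.7 to 34.9 TPM) and inguinal libraries (31.6 to 33.1 TPM) overlapped, and both lay above every small intestinal library (7.61 to 22.4 TPM).

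The clusters contributed to this sum in different proportions at each site. The HoxD genes held 82.1% ± 4.21 (SD, n = 4) of posterior Hox TPM in duodenal nodes, 76% ± 2.54 in jejunal, 68.5% ± 3.76 in ileal, 44.8% ± 1.14 in ceco-colonic and 49.7% ± 1.97 in inguinal nodes. Along the gut HoxC genes took the opposite course, from 5.61% ± 1.01 in duodenal over 8.83% ± 0.804 in jejunal and 16.2% ± 3.42 in ileal to 27.1% ± 0.25 in ceco-colonic and 33.4% ± 2.18 in inguinal nodes. The HoxA share was 4.98% ± 1.29, 8.39% ± 1.54 and 11.1% ± 1.28 along the small intestine, 24.7% ± 1.42 in ceco-colonic and 12.2% ± 1.09 in inguinal nodes. Ceco-colonic nodes thus had similar posterior Hox totals to inguinal nodes, with more HoxA and less HoxC: the HoxA shares (23% to 26.4% against 11.1% to 13.3%) and the HoxC shares (26.8% to 27.4% against 30.6% to 35.6%) did not overlap between both sites. HoxB, which has only Hoxb9 in these groups, held between 3.02% and 9.69% of the sum in any library.

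**Figure D1:**
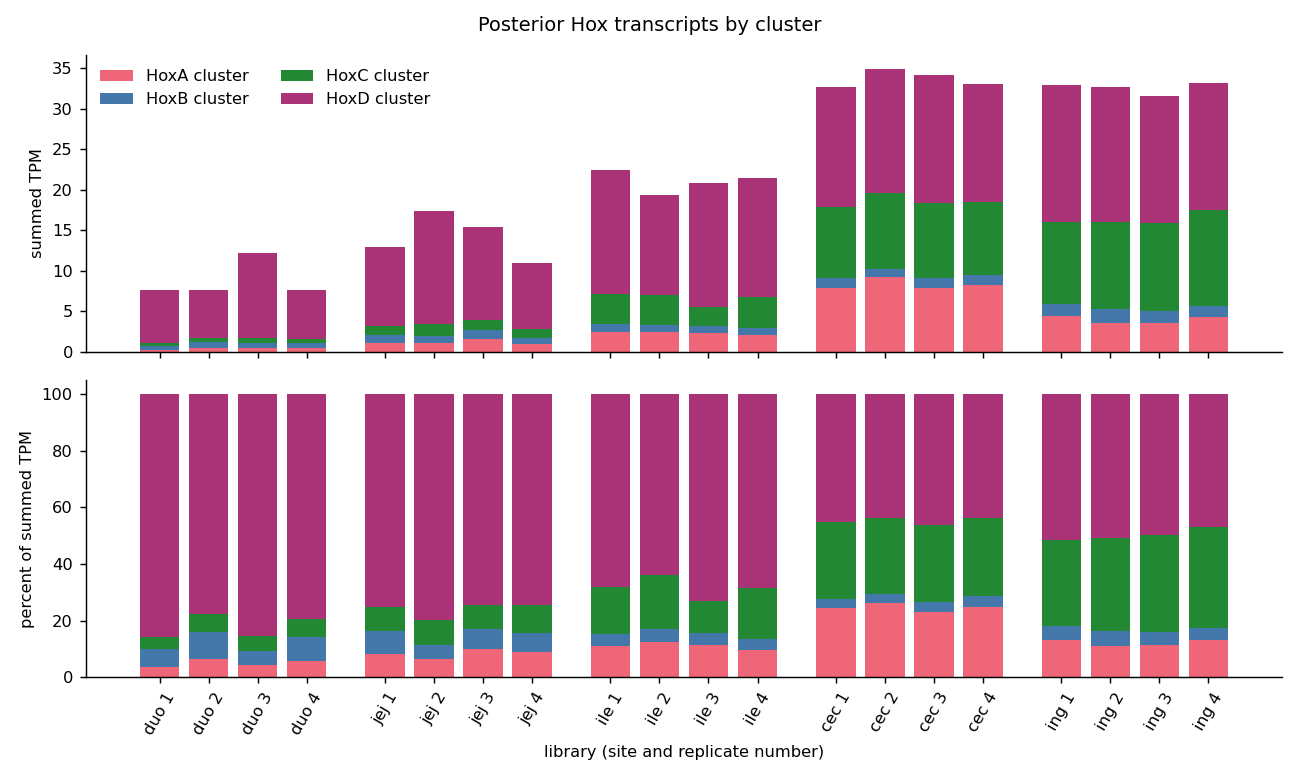
Posterior Hox TPM by cluster in each of the 20 libraries, as summed TPM (upper panel) and as percent of that sum (lower panel); site names are cut to 3 letters (duo, jej, ile, cec, ing). Mean totals were 8.77 TPM in duodenal and 33.7 TPM in ceco-colonic nodes, and the HoxD share was 82.1% and 44.8% there.

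Group 9 genes were detected in every library. Their levels and all those below are in CPM (counts per mega counts, scaled by TMM), which compare one gene between libraries but not genes with each other. Hoxa9, a cofactor-dependent regulator of blood progenitors and of the body axis, stood at 0.293, 0.456, 0.394 and 0.416 CPM in the duodenal libraries and at 0.914, 0.957, 1.31 and 1.02 CPM in the jejunal ones. The ileal libraries had 2.02, 1.95, 2.04 and 1.66 CPM, the ceco-colonic 5.58, 6.03, 4.92 and 5.72 CPM and the inguinal 2.95, 2.09, 1.98 and 2.61 CPM of it. Ceco-colonic libraries were thus the highest, without overlap with any other site, and only the ileal and inguinal ranges overlapped between neighbours in the order of means. The ceco-colonic mean was 4.98 times the mean of the 12 small intestinal libraries (5.56 ± 0.468 against 1.12 ± 0.666 CPM, n = 4 and 12). The log2 fold change was 2.59 ± 0.109 SE. Log2 fold changes against small intestinal nodes average the duodenal, jejunal and ileal nodes on the log2 scale. They therefore differ from the log2 of such ratios of means.

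Hoxc9, which marks trunk and hindlimb levels, stood at 0.535, 0.716, 0.754 and 0.654 CPM in duodenal, at 1.44, 1.7, 1.54 and 1.66 CPM in jejunal and at 3.77, 3.37, 2.54 and 3.76 CPM in ileal libraries. It reached 5.44, 5.09, 4.95 and 5.23 CPM in ceco-colonic and 6.15, 6.62, 6.52 and 7.22 CPM in inguinal libraries. No 2 sites overlapped, and the order was duodenal, jejunal, ileal, ceco-colonic, inguinal. The ileal mean was 5.06 times the duodenal one, and the inguinal mean 1.28 times the ceco-colonic one.

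Hoxd9 and Hoxb9 changed less. Hoxd9, the most abundant gene per length, had 8.73 ± 2.04 CPM in duodenal, 12.9 ± 1.67 in jejunal, 16.2 ± 1.53 in ileal, 16.5 ± 0.565 in ceco-colonic and 16.9 ± 0.62 CPM in inguinal nodes (SD, n = 4). Only the duodenal libraries (6.86 to 11.1 CPM) stood apart from the next site in the order, since the jejunal (11.7 to 15.3 CPM), ileal (14.1 to 17.6 CPM), ceco-colonic (16 to 17.1 CPM) and inguinal (16.2 to 17.7 CPM) ranges each overlapped the next. Hoxb9 ranged from 1 to 1.38 CPM in the duodenal libraries, from 1.49 to 1.67 CPM in the ileal, from 1.5 to 1.96 CPM in the jejunal, from 1.9 to 2.11 CPM in the ceco-colonic and from 2.33 to 2.82 CPM in the inguinal ones. Duodenal libraries were lowest and inguinal libraries highest for Hoxb9, both without overlap with another site.

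Group 10 held both steep and flat genes. Hoxc10, a gene of lumbar levels and the hindlimb, had 0.0173, 0, 0.072 and 0.00507 CPM in the duodenal libraries, which stand for 3.072, 0, 17.16 and 1.002 estimated counts. It had 0.0762, 0.271, 0.147 and 0.121 CPM in jejunal and 1.11, 1.54, 0.552 and 1.48 CPM in ileal libraries. The ceco-colonic libraries reached 6.7, 7.4, 6.42 and 6.4 CPM and the inguinal ones 6.39, 6.53, 7.06 and 7.13 CPM. Each small intestinal site lay above the one before it without overlap, and ceco-colonic and inguinal libraries were at the same level (ratio of means 0.993, log2 fold change -0.01 ± 0.327 SE). Its ileal mean was 7.6 times the jejunal one and its ceco-colonic mean 5.75 times the ileal one. The duodenal mean rests largely on library 3: the ileal against duodenal log2 fold change was 5.49 with it and 7.26 without it.

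Hoxa10, which acts in the lumbar axis, the reproductive tract and blood progenitors, stood at 0.0805, 0.0961, 0.14 and 0.071 CPM in duodenal, at 0.301, 0.232, 0.384 and 0.278 CPM in jejunal and at 0.642, 0.759, 0.51 and 0.617 CPM in ileal libraries. Ceco-colonic libraries had 3.63, 4.47, 3.3 and 3.33 CPM and inguinal libraries 1.73, 1.75, 1.98 and 1.89 CPM. Again no sites overlapped, but here the ceco-colonic mean was the highest, 2 times the inguinal one. It was 10.8 times the mean of the 12 small intestinal libraries. The log2 fold change, with the small intestinal sites averaged on the log2 scale, was 3.79 ± 0.127 SE. Hoxd10, a partner of Hoxd9 in the hindlimb and its nerves, was flatter, at 1.85 ± 0.503 CPM in duodenal, 2.74 ± 0.61 in jejunal, 3.59 ± 0.199 in ceco-colonic, 3.83 ± 0.6 in ileal and 4.28 ± 0.333 CPM in inguinal nodes. Every pair of neighbours in that order of means overlapped, while the ceco-colonic range (3.31 to 3.75 CPM) lay below the inguinal one (3.91 to 4.62 CPM) and the ileal range (3.34 to 4.68 CPM) lay above the duodenal one (1.5 to 2.6 CPM).

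Of group 11, Hoxd11 was seen mainly in the ceco-colonic nodes. The 4 libraries there had 1.25, 1.78, 1.63 and 0.885 CPM, which stand for 233.8, 300.0, 448.0 and 228.4 estimated counts of the gene table. Levels elsewhere were between 0.0127 and 0.0918 CPM, with means of 0.0601 CPM in ileal, 0.0528 in inguinal, 0.0375 in duodenal and 0.0362 CPM in jejunal nodes, and these sites overlapped one another. The ceco-colonic mean was 31.1 times that of the small intestinal libraries, and the log2 fold change was 4.98 ± 0.242 SE. This log2 fold change was smaller, at 4.01, when transcript counts were summed without length scaling. Hoxa11, a gene of the zeugopod and the reproductive tract, had 0.235, 0.261, 0.157 and 0.0892 CPM in ceco-colonic libraries (43.94, 43.63, 42.75 and 23.2 estimated counts). It was at 0 in 9 of the other 16 libraries and had at most 9.51 estimated counts in the rest. All ceco-colonic libraries lay above all others for both genes. Hoxc11 had 2.01 to 7 estimated counts in ceco-colonic, 4.97 to 8.92 in inguinal and 0 to 1.99 in small intestinal libraries, too few to order the sites with any precision and below the filter used for tests. A count of 0 allows up to 3 counts, which is 0.00976 to 0.0194 CPM depending on the library, and these limits cover counting error only.

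**Figure D2:**
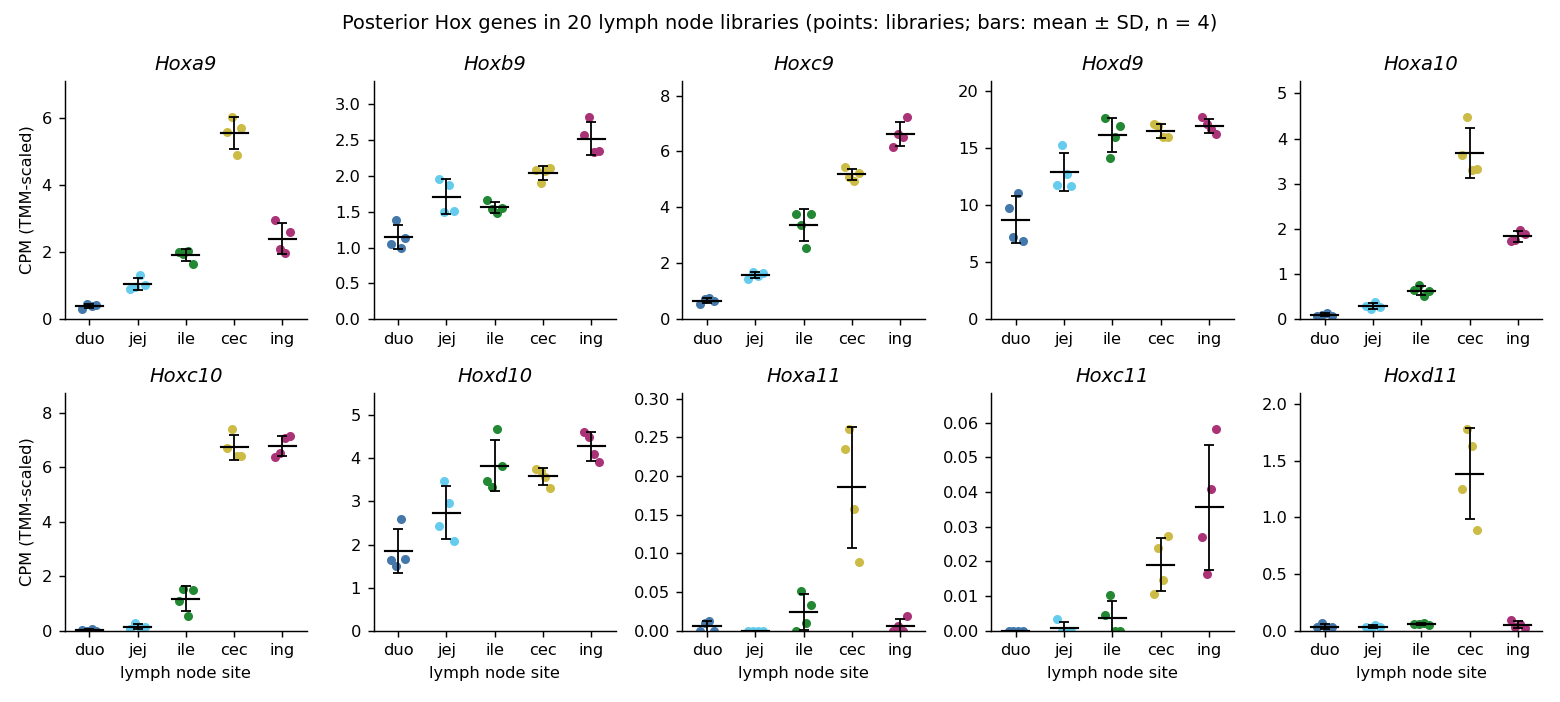
TMM-scaled CPM of the 10 posterior Hox genes in each library, by site (duo, duodenal; jej, jejunal; ile, ileal; cec, ceco-colonic; ing, inguinal), with the mean and SD of 4 libraries and a separate vertical scale for each gene. Hoxd11 reached 0.885 to 1.78 CPM in ceco-colonic libraries and at most 0.0918 CPM elsewhere, whereas Hoxc10 was as high in inguinal as in ceco-colonic libraries.

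Some of these values depend on how reads were assigned to transcripts. Hoxa11 shared 33.9% of its 31-base stretches with another gene, Hoxa11os, an RNA transcribed from its opposite strand that was itself highest in ceco-colonic nodes (0.0995 ± 0.034 CPM, against a mean of at most 0.0139 CPM elsewhere). Whether strand was used in counting is not given in the sources used here, so reads of Hoxa11 and Hoxa11os cannot be told apart with certainty. Hoxd11 shared 10.5% of its stretches with other genes, 426 of these 434 with the model gene Gm28309, and Hoxd10 shared 4.2% with Gm28309. This model had 0.184 to 0.255 CPM in ceco-colonic and at most 0.0108 CPM in other libraries. Hoxc10 shared 7.34% of its stretches with Hoxc5. The share was 2% or less for Hoxa9, Hoxb9, Hoxc9 and Hoxd9, and Hoxa10 and Hoxc11 shared none.

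Several of the genes start at more than 1 place, and the transcripts differed in how they were distributed over the sites. Hoxd11 has a coding transcript, Hoxd11-202, and a longer noncoding one, Hoxd11-201, that begins 2766 bases upstream on chromosome 2. Estimated counts of Hoxd11-202 were 57.2, 73.7, 116 and 41.5 in the ceco-colonic libraries, 2, 0, 1 and 0 in the ileal, 4, 0, 0 and 0 in the inguinal and 0 in all duodenal and jejunal libraries. Those of Hoxd11-201 were 72.7, 91.8, 131 and 123 in ceco-colonic and 3.13 to 16.8 in all other libraries. Outside the ceco-colonic nodes most of the few Hoxd11 counts went to the noncoding transcript. Each of these libraries had under 20 estimated counts of the gene, so the split is imprecise. In inguinal library 1 it was 4 coding and 6.03 noncoding counts. The length-scaled gene table gave Hoxd11 1.57 times the plain sum of its transcript counts over the 20 libraries, against 1.095 times for Hoxc9 and 0.956 to 1.03 times for the other genes. For Hoxd11 this was not even over the libraries. Ceco-colonic library 1 had 233.8 counts in the gene table, against transcript counts of 72.7 and 57.2. Duodenal library 1 had 6.39, against 7.4 and 0.

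Hoxa10 has starts that lie 5915 bases apart on chromosome 6: Hoxa10-201 begins at the distal one and Hoxa10-202, the longer coding transcript, at the proximal one. The stretches before the distal and the proximal start of Hoxd11 and Hoxa10 are printed to show how their sequences differ. They are the 250 bases upstream of the RefSeq starts in GRCm38.p6, 5′ to 3′ on the strand of the gene, with matches on either strand to TTTATG (an AT-rich core that posterior Hox proteins prefer), TGATTNAT (a Pbx and Hox composite), AGGTCA (a nuclear receptor half-site), TATAAA or CCAAT in capitals.
Hoxd11 distal start, chr2:74679308-74679557, plus strand: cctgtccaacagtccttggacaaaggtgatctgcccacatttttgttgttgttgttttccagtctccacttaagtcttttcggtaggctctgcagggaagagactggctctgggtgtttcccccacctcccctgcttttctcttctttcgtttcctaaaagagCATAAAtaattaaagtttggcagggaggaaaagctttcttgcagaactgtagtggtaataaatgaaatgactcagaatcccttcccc
Hoxd11 proximal start, chr2:74682073-74682322, plus strand: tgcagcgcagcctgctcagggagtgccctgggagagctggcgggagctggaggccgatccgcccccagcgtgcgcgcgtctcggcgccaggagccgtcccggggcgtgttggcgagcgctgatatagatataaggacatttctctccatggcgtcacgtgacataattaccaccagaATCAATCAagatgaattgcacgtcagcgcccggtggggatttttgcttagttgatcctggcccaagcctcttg
Hoxa10 distal start, chr6:52240855-52241104, minus strand: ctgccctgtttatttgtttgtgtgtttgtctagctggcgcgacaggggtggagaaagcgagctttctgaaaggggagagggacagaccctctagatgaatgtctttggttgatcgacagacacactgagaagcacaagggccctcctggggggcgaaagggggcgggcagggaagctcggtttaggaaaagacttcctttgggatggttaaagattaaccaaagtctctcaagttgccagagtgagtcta
Hoxa10 proximal start, chr6:52234940-52235189, minus strand: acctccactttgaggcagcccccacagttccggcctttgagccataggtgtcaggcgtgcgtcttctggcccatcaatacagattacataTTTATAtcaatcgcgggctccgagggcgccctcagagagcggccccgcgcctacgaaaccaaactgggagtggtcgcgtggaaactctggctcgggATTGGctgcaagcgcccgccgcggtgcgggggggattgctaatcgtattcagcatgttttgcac

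The distal starts had the lower GC content, 44.8% against 60.4% for Hoxd11 and 51.6% against 59.2% for Hoxa10. Hoxd11 held a TTTATG match before its distal start and a TGATTNAT match before its proximal start, and Hoxa10 held a TATAAA and a CCAAT match before its proximal start only. TTTATG matched 10.8% of 32851 promoters searched in the same way, TGATTNAT 2.82%, AGGTCA 14%, TATAAA 12.4% and CCAAT 33.8%. Of the 8 promoter entries of these genes (6 of the 10 genes matched by symbol, namely Hoxa9, Hoxa10, Hoxa11, Hoxd9, Hoxd10 and Hoxd11), 1 held TTTATG, 1 TGATTNAT, 1 AGGTCA, 1 TATAAA and 2 CCAAT. A match says only that these letters occur in the window.

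Hoxc9 also has a further start. Its short coding transcript Hoxc9-202 begins 593 bases upstream of the main transcript Hoxc9-201 on chromosome 15 and made up 0%, 1.8%, 0.74% and 0% of Hoxc9 estimated counts in the duodenal libraries. The jejunal libraries had 1.22%, 2.55%, 2.67% and 0.772%, and the ileal ones 4.47%, 4.33%, 4.39% and 4.73%. In ceco-colonic libraries it held 11.1%, 7.67%, 8.94% and 9.46% and in inguinal libraries 10.7%, 13.4%, 9.16% and 12.1%. The share therefore had the same order of site means as the level of the gene itself, and the duodenal and jejunal libraries lay below the ileal ones and these below both other sites. The duodenal and jejunal shares rest on 0 to 10 estimated counts of Hoxc9-202, and this transcript was picked out after its values were seen, so its order over the sites is given without a test. Hoxc9 has no other transcript than Hoxc9-201 beside it, so the test of Hoxc9-201 between ceco-colonic and inguinal nodes in the next paragraph is also that of Hoxc9-202.

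**Figure D3:**
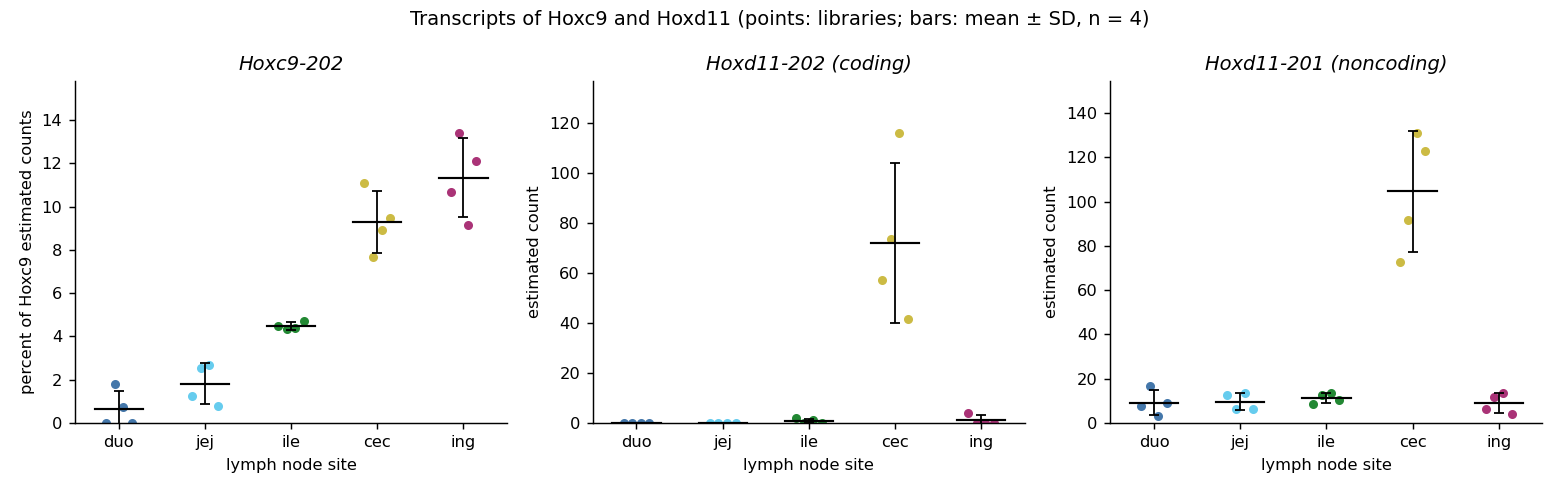
Percent of Hoxc9 estimated counts in the transcript Hoxc9-202 (left) and estimated counts of the coding Hoxd11-202 (middle) and the noncoding Hoxd11-201 (right), by library and site, with mean and SD of 4 libraries. Mean Hoxc9-202 shares were 0.635% in duodenal and 11.3% in inguinal nodes, and Hoxd11-202 was near 0 outside the ceco-colonic nodes.

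Whether ceco-colonic and inguinal nodes use different transcripts of a gene was tested where 2 or more transcripts each held at least 10% of its counts. The gene also needed at least 20 estimated counts in every library of both sites. Hoxd11 failed this count minimum in the inguinal libraries, which left Hoxa9, Hoxa10 and Hoxc9. The most abundant transcript of Hoxa9, Hoxa9-201, made up 60.7% ± 4.34 in ceco-colonic and 62.3% ± 3.39 in inguinal nodes (SD, n = 4 each, exact two-sided permutation p = 0.5714). Hoxa10-202 made up 46.5% ± 9.47 and 44.5% ± 2.19 (exact permutation p = 0.7429, n = 4 each), so the 2-fold difference of Hoxa10 between both sites came with a difference in transcript shares no larger than the spread. Hoxc9-201 made up 90.7% ± 1.4 and 88.7% ± 1.83 (exact permutation p = 0.1714, n = 4 each). After Benjamini-Hochberg adjustment over the 3 genes these exact permutation p-values were 0.7429, 0.7429 and 0.5143. Before adjustment, 0.0286 is the smallest p that 4 against 4 libraries allow. After adjustment over 3 genes, 1 gene alone at that p would still lie above 0.05. The test therefore could not call a change in 1 gene alone, and nothing is concluded from the lack of calls. The signs of the differences for Hoxa10-202 (1.97 percentage points) and Hoxa9-201 (-1.61 points) were not stable: without ceco-colonic library 3 they were -0.578 and 0.201 points, and without ceco-colonic library 4 that of Hoxa10-202 was -0.602 points.

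The comparisons between sites were counted over the 9 genes that passed the filter on low counts; Hoxa11 and Hoxd11 passed it through the ceco-colonic libraries alone, and Hoxc11 failed it. In ceco-colonic against small intestinal nodes 6 of these 9 genes had higher levels without overlap of the 4 and 12 libraries (Hoxa9, Hoxc9, Hoxa10, Hoxc10, Hoxa11 and Hoxd11), against 3.21% of the 29411 genes tested; 2.97% were lower without overlap and 16.6% were called by edgeR in either direction. Against the same small intestinal libraries, 4 of 9 were higher without overlap in inguinal nodes (Hoxb9, Hoxc9, Hoxa10 and Hoxc10), where 6.41% of all genes tested were higher and 6.57% lower. Between ceco-colonic and inguinal nodes 4 were higher (Hoxa9, Hoxa10, Hoxa11 and Hoxd11) and 3 lower (Hoxb9, Hoxc9 and Hoxd10) in the ceco-colonic libraries, against 13.1% and 13.5% of all genes. Ileal libraries lay above duodenal ones for 7 of 9 genes, all but Hoxa11 and Hoxd11, against 8.92% of all genes higher and 8.48% lower. Since the genes were chosen for these levels, nothing is read from the counts.

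Median log2 fold changes of the 9 genes were 2.59 in ceco-colonic and 0.79 in inguinal against small intestinal nodes, -0.01 in ceco-colonic against inguinal and 1.86 in ileal against duodenal nodes. The last is the value of Hoxa11 itself, which had at most 9.51 estimated counts in any of those libraries. Hoxa11 and Hoxd11, which passed the filter through the ceco-colonic libraries alone, entered the 2.59 median at 5.34 and 4.98. They entered the 0.79 median at 0.53 and 0.26. Both medians therefore depend on these genes and are not compared. Medians of all genes tested lay between -0.0223 and -0.0064. Site means increased from duodenal over jejunal and ileal to ceco-colonic nodes for Hoxa9, Hoxc9, Hoxd9, Hoxa10 and Hoxc10, 5 of the 9, and for 8.20% of all genes tested, while 8.22% decreased in that order. From duodenal over jejunal to ileal nodes alone, means increased for 6 of 9, with Hoxd10 added, and for 26.1% of all genes tested. The inguinal node does not extend the order to ceco-colonic nodes for all 5 genes, since it had less Hoxa9 and Hoxa10 than the ceco-colonic node. It had more Hoxc9 (6.63 against 5.18 CPM), and Hoxd9 (16.9 against 16.5 CPM) and Hoxc10 (6.78 against 6.73 CPM) overlapped between both. Hoxa11 and Hoxd11, which were not among the 5, were hardly present in the inguinal node.

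**Figure D4:**
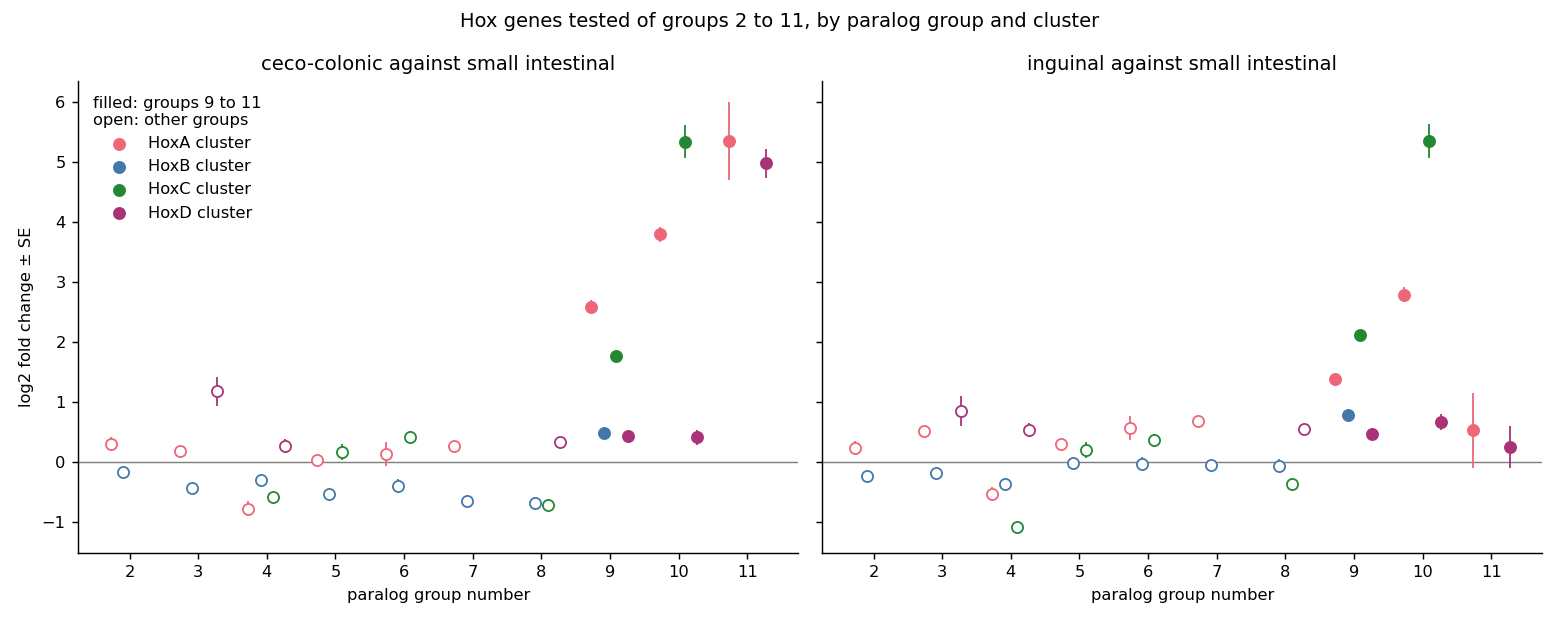
Log2 fold change with its standard error for the Hox genes tested of groups 2 to 11, by paralog group and cluster, in ceco-colonic (left) and inguinal (right) against small intestinal nodes, which both use the same small intestinal libraries. Genes of groups 9 to 11 are filled: Hoxc10 is at 5.34 and 5.35 in both panels, while Hoxd11 is at 4.98 on the left and 0.26 on the right. The small intestinal sites are averaged on the log2 scale.

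The other Hox genes, of groups 1 to 8 and 12 to 13, were counted from the same fit with edgeR's quasi-likelihood test and Benjamini-Hochberg adjustment over all genes; 22 of 29 passed the filter. In ceco-colonic against small intestinal nodes 5 of 22 rose and 9 fell, against 7.74% and 8.90% of all genes tested, with a median log2 fold change of -0.01. Those that fell were Hoxa4, Hoxb3, Hoxb4, Hoxb5, Hoxb6, Hoxb7, Hoxb8, Hoxc4 and Hoxc8, and Hoxa7, Hoxc6, Hoxd3 and Hoxd8 were among those that rose. Of the genes next to the posterior ones in each cluster, Hoxc8 was lower (6.48 ± 0.332 against 10.8 ± 2.75 CPM, n = 4 and 12, log2 fold change -0.70 ± 0.0918, edgeR adjusted p = 1.38e-05) and so was Hoxb8 (3.17 ± 0.316 against 5.16 ± 1.1 CPM, edgeR adjusted p = 0.000144). Hoxd8 was higher (16.3 ± 0.935 against 13.1 ± 2.09 CPM, edgeR adjusted p = 0.00375), and so was Hoxa7 (7.53 ± 0.64 against 6.22 ± 0.8 CPM, edgeR adjusted p = 0.0348). The Hoxa7 call was lost without duodenal library 2, jejunal library 2, 3 or 4, ileal library 3 or 4, or ceco-colonic library 1, 2 or 4. Hoxc8, the neighbour of Hoxc9, peaked in the ileal node (13.1 ± 0.974 CPM), whereas Hoxc9 had its highest levels in the ceco-colonic and inguinal nodes.

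In inguinal against small intestinal nodes 8 of the 22 other Hox genes rose and 4 fell (27.1% of all genes tested were called in either direction). Hoxd8 rose to 19 ± 1.13 from 13.1 ± 2.09 CPM (n = 4 and 12, edgeR adjusted p = 8.6e-06), and Hoxc4 fell to 3.39 ± 0.0996 from 7.16 ± 0.755 CPM (edgeR adjusted p = 8.52e-10). Ceco-colonic against inguinal nodes had 1 higher, Hoxc4, and 6 lower (10.6% and 10.3% of all genes). Ileal against duodenal nodes had 5 higher and 6 lower (8.03% and 6.58% of all genes), with Hoxc8 higher (13.1 ± 0.974 against 7.51 ± 1.24 CPM, edgeR adjusted p = 0.000206) and Hoxa4 lower (0.885 ± 0.112 against 1.92 ± 0.265 CPM, edgeR adjusted p = 0.000124). These 11 calls became 5 without duodenal libraries 1 and 2. The most posterior Hox genes, of groups 12 and 13, all failed the filter, and Hoxc12 and Hoxd12 were at 0 CPM at every site.

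Hox proteins bind DNA together with TALE homeodomain cofactors of the Pbx, Meis and Prep (Pknox) families, and all 9 genes of this list were tested. Meis1 had a mean of 14.8 ± 1.91 CPM in duodenal, 11.9 ± 0.0806 in jejunal, 10.7 ± 0.843 in ileal, 10.2 ± 0.327 in ceco-colonic and 5.81 ± 0.277 CPM in inguinal nodes (SD, n = 4). Its inguinal level was below the small intestinal one (log2 fold change -1.09 ± 0.0686, edgeR adjusted p = 1.95e-10) and its ileal level below the duodenal one (-0.47 ± 0.0783, edgeR adjusted p = 0.00103). Meis2 was lower in ceco-colonic (18.3 ± 2.08 CPM) and inguinal nodes (16.3 ± 1.47 CPM) than in small intestinal nodes (29.8 ± 4.18 CPM), with edgeR adjusted p = 3.32e-05 and 9.96e-07. Pknox2 was higher in ceco-colonic nodes (15.7 ± 0.689 CPM) than in small intestinal (10.6 ± 1.1 CPM, edgeR adjusted p = 5.88e-06) and inguinal nodes (10.4 ± 0.749 CPM, edgeR adjusted p = 3.47e-05). Pbx3 was highest in inguinal nodes, at 19.6 ± 1.14 against 15.5 ± 0.967 CPM in small intestinal nodes (edgeR adjusted p = 1.03e-05).

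Counted over the list, 1 TALE gene rose and 3 fell in ceco-colonic and 1 rose and 2 fell in inguinal against small intestinal nodes, where 16.6% and 27.1% of all genes tested were called in either direction. In ceco-colonic against inguinal nodes 3 were higher and 1 lower (21% of all genes called), and in ileal against duodenal nodes 1 was higher and 1 lower (14.6% of all genes called). Median log2 fold changes of the list lay between -0.03 and 0.14.

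**Figure D5:**
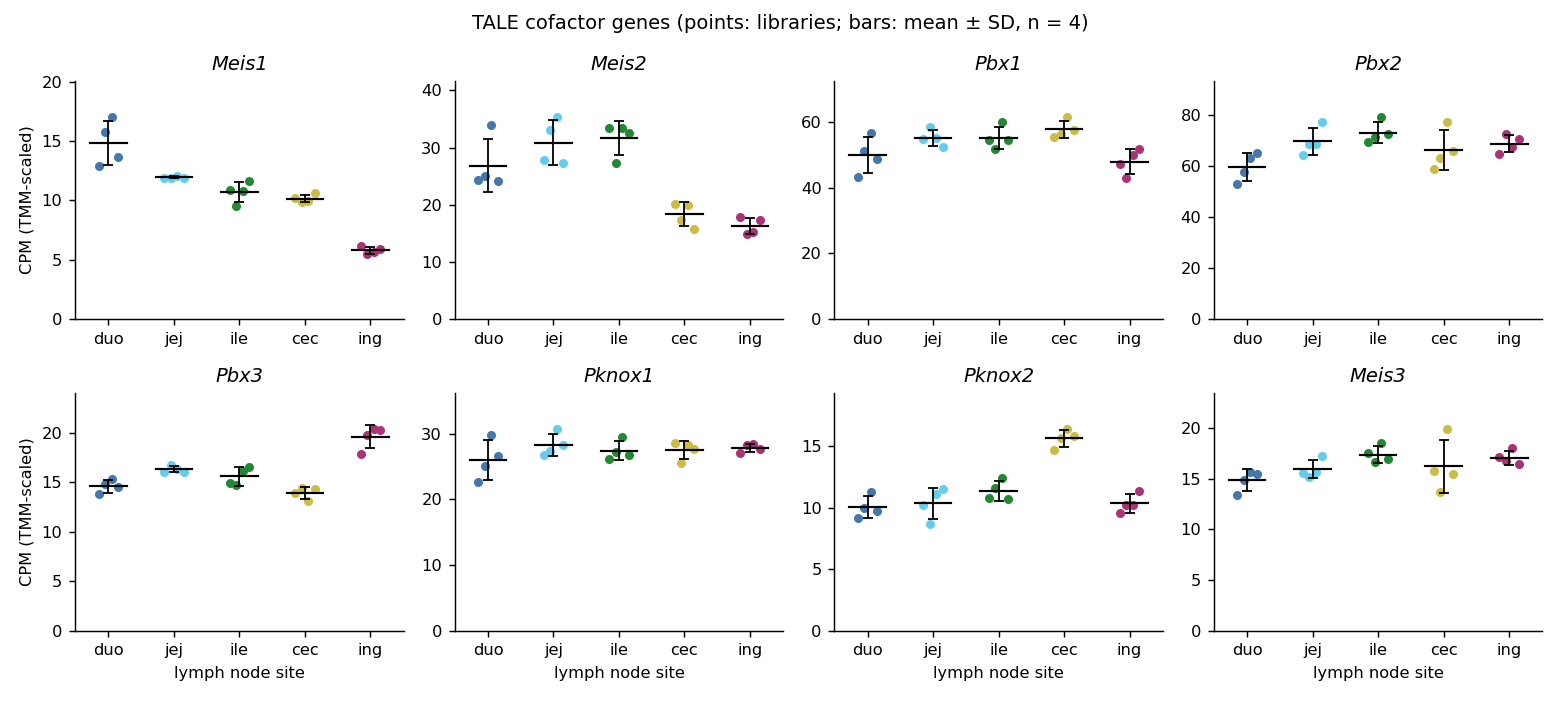
TMM-scaled CPM of 8 TALE cofactor genes in each library by site, with mean and SD of 4 libraries. Pknox2 was highest in ceco-colonic libraries (14.7 to 16.4 CPM) and Meis1 lowest in inguinal libraries (5.5 to 6.15 CPM).

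Noncoding RNAs of the Hox clusters gave 9 tested genes of 13 listed, 11 of which were in the table. In ceco-colonic against small intestinal nodes 2 rose, 1 of them Haglr, an RNA of the HoxD cluster (0.267 ± 0.0664 against 0.139 ± 0.0331 CPM, n = 4 and 12, edgeR adjusted p = 0.0072), and the other Hoxa11os. Another 2 fell, Hoxb3os (1.58 ± 0.216 against 2.71 ± 0.742 CPM, edgeR adjusted p = 3.81e-05) and Hoxb5os, and the latter call was lost with plain transcript sums and with the adipocyte covariate (edgeR). Hoxd3os1 was higher in inguinal than in small intestinal nodes (1.89 ± 0.0994 against 1.25 ± 0.189 CPM, edgeR adjusted p = 0.000105). Hotair, transcribed beside Hoxc11, and Hottip, beside Hoxa13, had site means of at most 0.00809 CPM. In total 2 rose and 1 fell in inguinal against small intestinal, 1 was higher and 1 lower in ceco-colonic against inguinal, and 4 were lower and none higher in ileal against duodenal nodes. The shares of all genes called were 16.6% in ceco-colonic and 27.1% in inguinal against small intestinal, 21% in ceco-colonic against inguinal and 14.6% in ileal against duodenal nodes.

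Axial and limb patterning genes act upstream of, or beside, the posterior Hox genes, and 12 of 16 listed were tested. The Cdx genes, which switch on posterior Hox genes in the embryo, were at site means of at most 0.183 CPM (Cdx1), 0.0135 CPM (Cdx2) and 0.00388 CPM (Cdx4). Cdx1 was higher in ceco-colonic (0.183 ± 0.029 CPM) and lower in inguinal (0.0388 ± 0.0184 CPM) than in small intestinal nodes (0.0924 ± 0.0276 CPM, edgeR adjusted p = 0.00559 and 0.00345), and higher in ceco-colonic than in inguinal nodes (edgeR adjusted p = 4.87e-05). The inguinal against small intestinal call was lost with the adipocyte covariate. Hand2, a mesenchymal factor of limb bud and gut, was lower in ceco-colonic (0.274 ± 0.0536 CPM) and inguinal nodes (0.0445 ± 0.0138 CPM) than in small intestinal nodes (1.66 ± 1.43 CPM), with edgeR adjusted p = 7.82e-05 and 5.71e-08. Shh, which encodes a patterning ligand, was lower in both as well (0.819 ± 0.269 and 0.822 ± 0.195 against 1.57 ± 0.289 CPM, edgeR adjusted p = 0.0014 and 0.000719). Tbx5, a forelimb and heart factor, was higher in ceco-colonic than in small intestinal nodes (1.06 ± 0.121 against 0.757 ± 0.0927 CPM, edgeR adjusted p = 0.00526). The list had 3 higher and 3 lower in ceco-colonic and 2 and 3 in inguinal against small intestinal, 3 and 2 in ceco-colonic against inguinal, and 1 and 1 in ileal against duodenal nodes. Those are 6, 5, 5 and 2 of 12 genes, where 16.6%, 27.1%, 21% and 14.6% of all genes were called.

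Polycomb and Trithorax proteins keep Hox genes off or on, and all 20 listed genes were tested. Cbx7, a Polycomb reader of histone methylation, was higher in inguinal than in small intestinal nodes (103 ± 3.42 against 78.4 ± 4.88 CPM, n = 4 and 12, log2 fold change 0.40 ± 0.0482, edgeR adjusted p = 2.15e-06), and Phc2, a subunit of Polycomb complex 1, was lower (118 ± 2.22 against 150 ± 18.3 CPM, edgeR adjusted p = 0.000134). Jarid2, a cofactor of Polycomb complex 2, was higher in ceco-colonic than in small intestinal nodes (51.5 ± 1.62 against 43.5 ± 2.73 CPM, edgeR adjusted p = 0.00172). The list had 3 higher and 1 lower in ceco-colonic and 3 and 2 in inguinal against small intestinal, 4 and 2 in ceco-colonic against inguinal, and 3 and none in ileal against duodenal nodes. Those are 4, 5, 6 and 3 of 20 genes, near the 16.6%, 27.1%, 21% and 14.6% of all genes called.

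The genes most like the 4 most abundant posterior Hox genes over the 20 libraries were found among 13838 genes of at least 1 CPM, by Pearson's r of log2 CPM. For Hoxc9 they were Tbc1d14 (r = 0.951), Mettl27 (0.945) and Tcf25 (0.941), and for Hoxc10 Tcf25 (0.943), Tbc1d14 (0.934) and Ms4a8a (0.932). Hoxd9 was followed by Prrg2 (0.9), Nrbp1 (0.895) and Dmrt2 (0.892), and Hoxd10 by Dmrt2 (0.906), Celsr1 (0.887) and Hoxd8 (0.886), its neighbour but one in the cluster. Spans differed widely between such partners: site means of Tcf25 went from 228 CPM in duodenal to 350 CPM in inguinal nodes, and those of Hoxc10 from 0.0236 to 6.78 CPM. The values describe likeness over libraries that share their sites, and by Spearman's rank correlation Celsr1 with Hoxd10 was the only one of these pairs that stayed among the first 3. Among the members, Hoxc9 and Hoxc10 had r = 0.98, Hoxa9 and Hoxa10 0.97 and Hoxd9 and Hoxd10 0.94 over the 20 libraries, whereas Hoxd10 and Hoxd11 had 0.28.

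Other cell types differed between the sites as well. The 10 stromal and vessel markers of lymph nodes in the list were all detected in every library, and their summed level was 4400 to 5290 CPM in ceco-colonic, 2170 to 4040 CPM in small intestinal and 2360 to 3010 CPM in inguinal libraries. They were thus highest in ceco-colonic libraries, as were Hoxa9, Hoxa10, Hoxa11 and Hoxd11. The other posterior Hox genes had their highest means in inguinal nodes, where these stromal and vessel markers had their lowest median sum (2750 CPM). The 6 fibroblast markers summed to 3210 to 3580 CPM in ceco-colonic, 3740 to 4850 CPM in small intestinal and 2400 to 2950 CPM in inguinal libraries. Adipocyte markers (8 of 8 detected) were at 570 to 1790 CPM in jejunal and 655 to 1080 CPM in ileal libraries. They were lower in duodenal (133 to 452 CPM), ceco-colonic (135 to 353 CPM) and inguinal libraries (132 to 564 CPM), without overlap. Pancreatic acinar markers (7 of 7) ranged from 5.14 to 66.3 CPM, except for 22700 and 13100 CPM in duodenal libraries 1 and 2. Without these 2 libraries the counts of posterior Hox genes that did not overlap were 6, 4, 7 and 8 in the 4 comparisons in the order given above. With the adipocyte level as a covariate, every posterior Hox log2 fold change moved by less than the SD between libraries of a site. Since the adipocyte level itself differed between sites, this refit cannot separate adipocyte content from site.

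Smooth muscle markers (5 of 5) were at 409 to 490 CPM in inguinal, 274 to 305 CPM in ceco-colonic and 185 to 988 CPM in small intestinal libraries. Progenitor markers of blood (6 of 6) were at 463 to 531 CPM in ceco-colonic, 384 to 499 CPM in small intestinal and 427 to 446 CPM in inguinal libraries. Summed markers of intestinal epithelium were between 11.4 and 18.9 CPM, of mesothelium between 0.898 and 8.19 CPM, of keratinocytes and mammary epithelium between 1.55 and 18 CPM, of skeletal muscle between 2.21 and 3.34 CPM and of mature lymphocytes between 5.76 and 14.2 CPM. Fabp2, Upk3b, Krt5, Krt14 and Myh4 were at 0 in at least 1 library. The part of stromal, smooth muscle and progenitor cells in the Hox levels was not tested.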

How the data were processed

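PolyA RNA-seq of 20 whole lymph nodes (4 per site) was analysed. Per the submitters' processing notes the authors used kallisto, edgeR and limma, and the notes name GRCm39 and mm10. Not given are versions, what each build was used for and any strand setting. In the gene table deposited by the authors the values are estimated counts (expected counts), and the deposited transcript tables hold kallisto estimated counts, TPM values and other columns (transcript length and effective length). The gene table matched length-scaled TPM computed from the transcript tables in 99.37% of values within 0.001 log2 over 12542 genes, against 3.34% for plain sums. The lengths of all 21 transcripts of the posterior Hox genes matched GENCODE M21.

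Estimated counts were rounded and fitted once for all 20 libraries with edgeR 4.0.16 in R 4.3.3 (filterByExpr by site with a minimum count of 10 and minimum total of 15, TMM, quasi-likelihood test). Benjamini-Hochberg adjustment ran over the 29411 genes tested, with an adjusted p threshold of 0.05. Small intestinal stands for the duodenal, jejunal and ileal nodes. Its mean CPM and SD are over 12 libraries, whereas log2 fold changes against it average the site coefficients of the fit on the log2 scale. CPM are TMM-scaled; log2 CPM used a prior count of 2. Transcript shares were tested by exact permutation (scipy 1.17.1). The fit was tested on simulated data. No libraries were identical.

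The posterior Hox genes and all lists were chosen with earlier results of these data known. Context genes were named by a rule: up to 5 called genes per list and comparison with the largest log2 fold change and at least 0.2 CPM on the higher side. Cdx1, and Hoxa7 and Hoxd8 in ceco-colonic against small intestinal nodes, fall outside it and were chosen after their values were seen. Promoters come from RefSeq (GRCm38.p6). Alternatives were RLE size factors, DESeq2 1.42.0, limma-voom (limma 3.58.1), no filter, plain transcript sums, only the groups compared, a replicate block, an adipocyte covariate, and leaving out libraries; for transcript shares, shares of TPM and a higher count minimum. The single result of 1 other Hox gene is not reported here.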

Additional observations from a re-analysis of the deposited data

Results flagged for a closer look

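In 4 of 89 groups of 4 libraries the highest library lay far from the other 3, by a criterion that chance meets in about 5% of groups. Both duodenal cases concern library 3: Hoxd10 stood at 2.6 CPM there and at 1.5 to 1.66 CPM in the other 3, and the summed posterior Hox level was 12.1 TPM against 7.61 to 7.69 TPM. HoxD genes held 79.8% of posterior Hox TPM in jejunal library 2 and 74.5% to 75.3% in the other 3 jejunal libraries. Hoxc11 was at 0.00331 CPM in jejunal library 1, which stands for 1.012 estimated counts, and at 0 in the other 3.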

How the results depend on the processing

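No alternative reversed the log2 fold change of a posterior Hox gene among those called. As the genes were selected on these libraries, this is no support for their levels. Of 1042 recomputed values, most from leaving out libraries, 12 moved by more than the SD between libraries. With plain transcript sums, Hoxc9 went from 1.76 to 1.43 in ceco-colonic and from 2.12 to 1.71 in inguinal against small intestinal nodes. In ileal against duodenal nodes, Hoxc9 then went from 2.33 to 2.14, Hoxa9 from 2.29 to 1.93 and Hoxa10 from 2.68 to 2.95. Hoxd11 went from 4.72 to 4.08 in ceco-colonic against inguinal nodes. The counts of posterior Hox genes that did not overlap stayed within 1.5 times the reported ones under each alternative run. The number of all genes called in ceco-colonic against small intestinal nodes was 4894 and became 2418 with the adipocyte covariate. In ileal against duodenal nodes it was 4297, and became 1267 without duodenal libraries 1 and 2, 1644 with the adipocyte covariate and 2571 with only the groups compared; leaving out 1 library each gave 2306 to 4732, the lowest without duodenal library 2. The 11 other Hox genes called there became 5 without duodenal libraries 1 and 2 and 4 with the adipocyte covariate. Leaving out 1 library each gave -0.602 to 5.89 percentage points for Hoxa10-202 and -2.98 to 0.201 for Hoxa9-201; the cause of the changes of sign, at -0.578 and 0.201 without ceco-colonic library 3 and -0.602 without ceco-colonic library 4, was not tested. Of 2291 recomputed values of the context genes, 128 were no longer called and none was reversed.

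Libraries with the same number were not treated as paired, because the labels do not say what the number stands for. Yet 17 of 20 libraries correlated best with their own number, and 13 of 40 correlations of their deviations exceeded 0.1. Anything shared by libraries of the same number is not modelled in the reported p-values and SEs. With the replicate block, 5575 genes were called in ceco-colonic and 8799 in inguinal against small intestinal, 6928 in ceco-colonic against inguinal and 5668 in ileal against duodenal nodes. Without it these were 4894, 7981, 6168 and 4297. The other Hox genes called with the block were 14, 12, 9 and 14 in the same order. Depth limits Hoxa11, Hoxc11 and duodenal Hoxc10, which rest on few counts.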
